A study of Mus musculus with 2 samples.

Results

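Mitochondrial ribosomal proteins build the ribosome of the mitochondrial matrix, and their genes were identified among all genes of the array by symbols that start with Mrpl (large subunit) or Mrps (small subunit) followed by a number. The array held 70 such genes of 11807 genes in all, 45 of the large and 25 of the small subunit, read by 112 probe sets that each carry a single gene symbol. A further 2 probe sets name Mrps25 together with another gene and were not used. All 70 symbols were found by Entrez identifier in the RefSeq gene table of mouse assembly GRCm38.p6, and 0 had changed. Mrpl22, Mrpl45, Mrpl47, Mrpl51, Mrps10, Mrps18c, Mrps27 and Mrps28 were not analysed here.

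The study compared CD4+ T cells cultured with IL-27 and CD4+ T cells cultured without it, to find transcription factors that the cytokine induces. IL-27-treated cells received recombinant murine IL-27 at 25 ng/ml, a heterodimeric cytokine whose receptor activates JAK kinases and STAT factors. Untreated cells were kept in neutral culture. The cells of both groups were naive CD4+ T cells of female C57BL/6J mice, taken from spleen and lymph nodes, and both were activated for 60 h on plate-bound antibodies to CD3 and CD28. Each group is 1 array, so no difference has a replicate, a standard error or a p-value. The labels do not say how many mice were pooled. With these arrays an effect of IL-27 and variation between cultures cannot be told apart.

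The mitochondrial ribosome translates only the messages that mitochondrial DNA encodes, all of them core subunits of the respiratory chain and ATP synthase. Its RNA comes from mitochondrial DNA, whereas all of its proteins are encoded in the nucleus, made on cytosolic ribosomes and imported. Activated T cells enlarge their mitochondria and raise mitochondrial translation as they leave quiescence and start to divide. Compared with its bacterial relatives the mammalian mitoribosome has less RNA and more protein, including many proteins with no bacterial counterpart.

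Intensities were on the linear scale of RMA, a procedure that subtracts background, equalizes the distributions of the arrays and summarizes each probe set. A difference is always log2 of the IL-27-treated minus the untreated array, and a gene was read by its brightest probe set. Genes above an intensity of 20.5 on at least 1 array, the level that 95% of values from genes of other tissues did not exceed, were called above background, which left 7177 genes. In bulk RNA that is scaled in this way, fewer cells of a type and less RNA per cell cannot be told apart, and a change of total RNA per cell cannot be seen. Of 8 measured markers of CD4+ T cells all 8 were above background, 2 higher and 6 lower on the IL-27-treated array, with a median difference of -0.20. Their summed intensity was 12648 on the IL-27-treated and 14840 on the untreated array. Cd4 was at 395.4 on the IL-27-treated and 342.5 on the untreated array, and Cd3e at 546.2 on the IL-27-treated and 607.0 on the untreated array. Cd5 differed most of the 8, at 1639 on the IL-27-treated and 2650 on the untreated array. Of 33 measured markers of other cell types, 6 were above background, the brightest being Cd8b1 at 176.5 on the IL-27-treated and 119.3 on the untreated array, while Cd8a was below it on both. Summed over the 33, intensity was 643.9 on the IL-27-treated and 602.3 on the untreated array. Without Cd8b1 the sums were 467.4 on the IL-27-treated and 483.0 on the untreated array, and the macrophage marker Cd68 had 27.5 on the IL-27-treated and 54.9 on the untreated array. The part of other cells in the results was not tested. Median intensities over all probe sets were 32.4 on the IL-27-treated and 33.3 on the untreated array.

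Most genes of both subunits were slightly higher on the IL-27-treated array. All 70 were above background on both arrays, with intensities between 164.3 and 2544. Of the 70, 59 were higher by any amount, against 51.8% of all genes above background, and 11 were lower, against 47.9%. The median difference was 0.21 over the 70 genes and 0.01 over all genes above background. No member was 2-fold apart in either direction (0 of 70), where 1.45% of all genes passed that fold on the higher side and 2.65% on the lower. The family thus lay to the higher side as a group, by 1.15-fold at the median large subunit gene (Mrpl14), and without a large change of any single gene.

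The background differs little when it is taken over genes of like brightness. Among the 3525 genes whose mean level lay between the dimmest and the brightest member, 54.3% were higher by any amount, and their median difference was 0.03. A limit of 0.32 on the log2 scale was counted as well, because no member passed 2-fold. Of the 70 members, 14 were higher by at least 0.32, against 16.4% of all genes above background and 15.5% of the genes of like brightness, and 1 was lower by at least 0.32, against 16.5% of all genes. The share of members past the limit on the higher side lay close to that background, so the shift is one of many small differences and of few lower genes. By quartiles, 31 members lay above the upper quartile of all genes, at 0.22, 36 lay between the quartiles and 3 lay below the lower quartile, at -0.21.

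**Figure D1:**
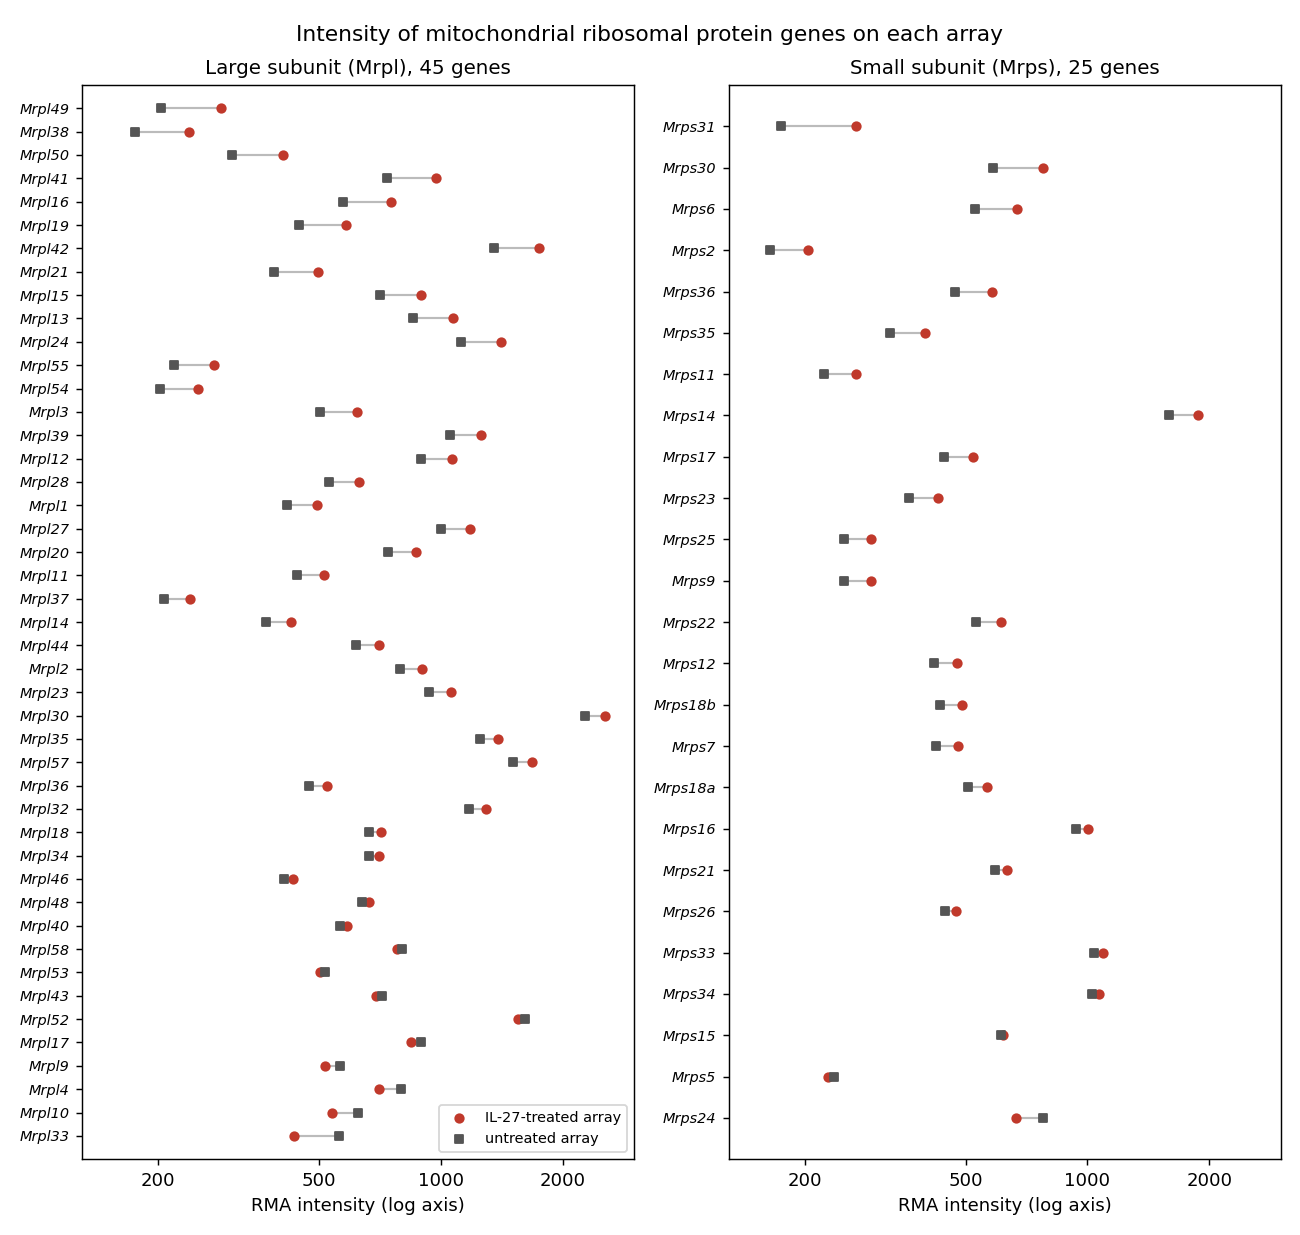
Intensity of each mitochondrial ribosomal protein gene (log axis) on the IL-27-treated array (red circles) and the untreated array (grey squares), 1 array each, ordered by difference within each subunit. The red circle lies to the right of the grey square for 36 of 45 large subunit genes and 23 of 25 small subunit genes, and the widest gap is that of Mrps31.

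In the large subunit, 36 of 45 genes were higher and 9 lower, with a median difference of 0.20 and quartiles of 0.07 and 0.32. Over all genes above background 51.8% were higher and 47.9% lower. The median intensity of the subunit's genes was 701.9 on the IL-27-treated and 637.7 on the untreated array. Differences of at least 0.32 were found for 11 genes on the higher side and 1 on the lower. Of all genes above background, 16.4% and 16.5% differed by as much on these sides. The count of large subunit genes on the higher side was 7 with loess and 7 with the mean of each gene's probe sets. It was 6 of 36 genes with only probe sets specific by their identifiers.

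The genes with the highest differences in the large subunit came from both evolutionary classes of its proteins. Mrpl49, a protein without a bacterial counterpart, had intensities of 285.5 on the IL-27-treated and 203.9 on the untreated array, which is 1.40-fold higher. Mrpl38, a protein of the central protuberance, had 238.6 on the IL-27-treated and 175.3 on the untreated array (1.36-fold). Mrpl50 had 406.5 on the IL-27-treated and 304.0 on the untreated array (1.34-fold). None of these 3 proteins has a bacterial homologue, and neither has Mrpl41, at 972.8 on the IL-27-treated and 734.7 on the untreated array (1.32-fold). The next genes in order do, except Mrpl42. Mrpl16, which lies close to the peptidyl transferase centre, had 754.1 on the IL-27-treated and 573.3 on the untreated array (1.32-fold). Mrpl19 had 583.5 on the IL-27-treated and 446.2 on the untreated array (1.31-fold), and Mrpl21 had 496.0 on the IL-27-treated and 387.4 on the untreated array (1.28-fold). Mrpl42 had 1752 on the IL-27-treated and 1350 on the untreated array (1.30-fold). Differences of 0.34, 0.33 and 0.33 followed for Mrpl15, Mrpl13 and Mrpl24, the last a protein beside the exit of the polypeptide tunnel. Mrpl55 and Mrpl54 stood just below the limit, at 0.32 each after rounding. Mrpl30 had 2544 on the IL-27-treated and 2274 on the untreated array, the highest intensities read for any member, and differed by 0.16, as did Mrpl57 and Mrpl35 by 0.15 each.

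Of the 9 lower genes of the large subunit, only Mrpl33 passed the limit of 0.32. Mrpl33, a small protein with a bacterial counterpart, had intensities of 432.9 on the IL-27-treated and 561.2 on the untreated array, 1.30-fold lower. Mrpl10, the protein that anchors the stalk, had 538.6 on the IL-27-treated and 625.2 on the untreated array, a difference of -0.22. Mrpl4, whose bacterial counterpart lines the polypeptide tunnel, had 704.5 on the IL-27-treated and 797.0 on the untreated array, a difference of -0.18. Mrpl9 differed by -0.13 and Mrpl17 by -0.08. Mrpl52, Mrpl43 and Mrpl53, all without a bacterial homologue, differed by -0.06, -0.05 and -0.05. Mrpl58, a peptidyl-tRNA hydrolase that rescues stalled ribosomes and is also a ribosomal protein, differed by -0.04.

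In the small subunit, 23 of 25 genes were higher and 2 lower, with a median difference of 0.21 and quartiles of 0.10 and 0.26. Over all genes above background 51.8% were higher and 47.9% lower. The median intensity was 520.3 on the IL-27-treated and 443.5 on the untreated array. The limit of 0.32 was passed by 3 of the 25 genes on the higher side and by 0 on the lower. Of all genes above background 16.4% and 16.5% passed it, so the small subunit share was below background on both sides. On the higher side the limit was passed by 6 of 16 small subunit genes when only probe sets specific by their identifiers were used.

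Mrps31 had the highest difference of all 70 genes. Its intensities were 268.2 on the IL-27-treated and 174.9 on the untreated array, 1.53-fold higher, by its only probe set. Mrps30 had 776.5 on the IL-27-treated and 583.3 on the untreated array (1.33-fold), and Mrps6 had 668.0 on the IL-27-treated and 526.1 on the untreated array (1.27-fold). These 3 are the Mrps genes past the limit of 0.32. Mrps2, at 203.6 on the IL-27-treated and 164.3 on the untreated array, differed by 0.31, Mrps36 by 0.30 and Mrps35 by 0.29. Mrps11 and Mrps14 differed by 0.26 and 0.25. At the other end, Mrps24 had 666.5 on the IL-27-treated and 777.1 on the untreated array, a difference of -0.22, and Mrps5 had 228.2 on the IL-27-treated and 236.5 on the untreated array, a difference of -0.05. Between them and the upper genes stood Mrps15, Mrps34, Mrps33, Mrps26, Mrps21 and Mrps16, which differed by 0.02, 0.06, 0.07, 0.09, 0.10 and 0.10. The symbols do not match the structure throughout: Mrps30 and Mrps18a are part of the large subunit in structures of the mammalian mitoribosome, and Mrps36 is a component of the oxoglutarate dehydrogenase complex. With Mrps30 and Mrps18a (0.16) moved and Mrps36 left out, 38 of 47 large subunit genes and 20 of 22 small subunit genes were higher, with a median of 0.20 in each.

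Proteins inherited from bacteria and proteins particular to mitochondria had like differences. In the large subunit the median was 0.21 over 28 genes with a bacterial homologue, 23 of them higher, and 0.18 over 17 genes without one, 13 of them higher. In the small subunit it was 0.19 over 13 genes with a bacterial homologue, 11 of them higher, and 0.21 over 9 genes without one, all 9 higher. Over all genes above background 51.8% were higher. Mrps18b, a relative of a bacterial protein that sits at another site of the mitoribosome, was counted among those without and differed by 0.19. By place in the ribosome the picture was mixed within small groups. Of the stalk proteins, Mrpl12, which binds the factors of elongation, differed by 0.25 and Mrpl11 at the stalk base by 0.22, while Mrpl10 was lower as given above. At the exit of the polypeptide tunnel Mrpl24 differed by 0.33, Mrpl23 by 0.18, Mrpl44 by 0.18 and Mrpl17 by -0.08. Around the decoding site and the path of the message, Mrps12, which in bacteria governs the accuracy of decoding, differed by 0.19, Mrps7, Mrps9 and Mrps11 by 0.18, 0.22 and 0.26, and Mrps24 and Mrps5, which line the entry of the message, by -0.22 and -0.05.

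Probe sets that read the same gene gave the only internal measure of error, one that covers the probes and not the cultures or hybridizations. Of the 112 probe sets of the family, 100 were above background, and 84 of these were higher, which is 84.0%, against 51.8% of 10565 probe sets over all genes. In the large subunit 51 of 65 and in the small subunit 33 of 35 probe sets were higher. For 25 genes with several probe sets above background, all probe sets were higher for 20, all were lower for 2 and the signs differed for 3. Probe sets shared a sign for 68.2% of all 2394 genes with several. Between probe sets of the same member the SD of the difference, pooled over these 25 genes, was 0.15. The SD over members was 0.19 in the large and 0.16 in the small subunit.

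The direction of some single genes depends on the probe set. Mrps24 was lower by 1 probe set, given above, and differed by 0.17 by the other, with intensities of 746.0 on the IL-27-treated and 662.5 on the untreated array. Mrps5 differed by -0.05 by its brighter and by 0.35 by its other probe set, at 202.2 on the IL-27-treated and 158.9 on the untreated array. Both lower genes of the small subunit therefore had a second reading on the higher side. Mrpl15 was higher by its bright probe set and differed by -0.13 by one close to background, at 28.7 on the IL-27-treated and 31.6 on the untreated array. Mrps15 differed by 0.02 and 0.48, Mrpl35 by 0.15 and 0.51 and Mrpl41 by 0.40 and 0.03. Other genes were read alike: Mrpl50 differed by 0.42 and 0.46, Mrps14 by 0.25 and 0.23, and Mrpl13 by 0.33, 0.40 and 0.48. Mrpl49 differed by 0.49 and 0.25. On the lower side, Mrpl9 differed by -0.13 and -0.23, and the 4 probe sets of Mrpl52 lay between -0.28 and -0.06. Mrpl33, Mrpl10, Mrpl4 and Mrps31 each rest on 1 probe set above background.

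**Figure D2:**
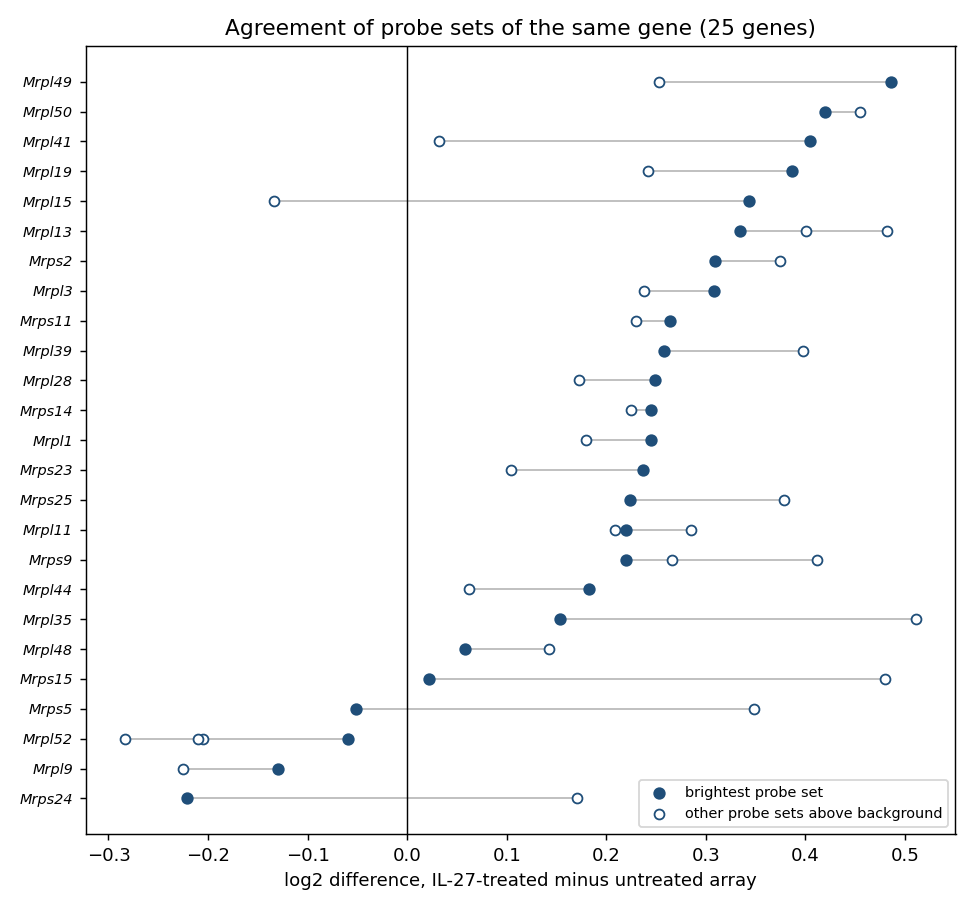
Log2 difference (IL-27-treated minus untreated array) of each probe set above background for the 25 members that have several, with the brightest probe set filled and the others open. All probe sets lie right of 0 for 20 genes and left of 0 for Mrpl9 and Mrpl52, and the pairs of Mrpl15, Mrps5 and Mrps24 cross 0.

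In most other groups of nuclear genes for mitochondrial translation the higher genes also outnumbered the lower, except among ribosomal proteins under other symbols, which split evenly. Of 4 measured ribosomal proteins without an Mrp symbol, Ptcd3 differed by 0.38, Chchd1 by 0.29, Dap3 by -0.05 and Gadd45gip1 by -0.21. Of 16 measured genes that assemble the mitoribosome or modify its RNA, 13 were higher and 3 lower, with a median of 0.19. Of these 16, 6 were higher by at least 0.32. Over all genes above background the shares were 51.8% higher by any amount and 16.4% higher by at least 0.32. Tfb1m, a methyltransferase that modifies the RNA of the small subunit, had intensities of 266.7 on the IL-27-treated and 169.5 on the untreated array, a difference of 0.65. The RNA methyltransferase gene Mrm2 differed by 0.46, the pseudouridine synthase gene Trub2 by 0.44 and Fastkd2, an RNA-binding protein of mitoribosome assembly, by 0.37. Mrm2 was close to background, at 36.5 on the IL-27-treated and 26.6 on the untreated array.

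For the following lists too, the share of higher genes over all genes above background was 51.8%. Translation factors of mitochondria were higher in 7 of 9 cases, with a median of 0.14. Among them Lrpprc, which stabilizes mitochondrial messages, had 229.8 on the IL-27-treated and 165.8 on the untreated array, a difference of 0.47. Gfm2, a factor of ribosome recycling, differed by 0.22, the elongation factor gene Tufm by 0.18 and Oxa1l, which inserts new proteins into the inner membrane, by -0.19. All 8 mitochondrial aminoacyl-tRNA synthetases above background were higher, with a median of 0.21, led by Iars2 (0.42), Tars2 (0.30), Rars2 (0.26) and Hars2 (0.22). Fars2, of these 8, was at the background limit, with 20.5 on the IL-27-treated and 19.8 on the untreated array. Genes that maintain and transcribe mitochondrial DNA were higher in 9 of 11 cases, with a median of 0.17. The topoisomerase gene Top1mt differed by 0.55, the elongation factor gene Tefm by 0.44, the single-strand binding protein gene Ssbp1 by 0.40 and the RNase H gene Rnaseh1 by 0.31.

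Families that are close in function showed less as a whole, though most genes of complex III were higher. Over 64 genes of cytosolic ribosomal proteins above background the median difference was 0.005, with 37 higher and 25 lower, and 0 passed the limit of 0.32 in either direction. The sign of that median turned when array medians were subtracted or loess was applied, so it gives no direction. Rps27l, a stress-related relative of Rps27, differed by 0.27, Rpl39l by 0.22, Rps21 by -0.13 and Rps26 by -0.13. These genes lie near the top of the intensity scale, with a median intensity of 8684 on the IL-27-treated and 8718 on the untreated array, and 62 of the 64 were read at higher intensities than any mitochondrial ribosomal protein gene. The SD of their differences was 0.07, and the part of brightness in that narrow spread was not tested. Over 72 genes of the respiratory chain and ATP synthase, the complexes that the mitoribosome helps to build, the median was 0.04 with 44 higher and 28 lower, and just below 0 after loess. The limit of 0.32 was passed by 5 of them on the higher side and by 2 on the lower. Of all genes above background 51.8% were higher, and 16.4% and 16.5% passed the limit on the higher and the lower side. These genes were also grouped by the start of the symbol and not by structure. The median was 0.05 for 32 Nduf genes (complex I), 21 of them higher. It was 0.14 for 10 Uqc and Cyc1 genes (complex III), 8 of them higher. Medians were -0.05 for 13 Cox genes (complex IV), 6 of them higher, and 0.04 for 17 Atp5 genes (ATP synthase), 9 of them higher. Among the Cox genes, Cox8b, Cox8c and Cox6a2 were close to background, with no intensity over 47.4, and differed by -0.19, -0.14 and -0.09. The part of dim genes in the Cox median was not tested. Cox6b2 differed by 0.76, Ndufa5 by 0.48 and Ndufa4 by 0.46, while Cox7a1 was below background on the IL-27-treated array, at 20.3, and at 37.7 on the untreated array. With 1 array per group the difference between families was not tested.

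**Figure D3:**
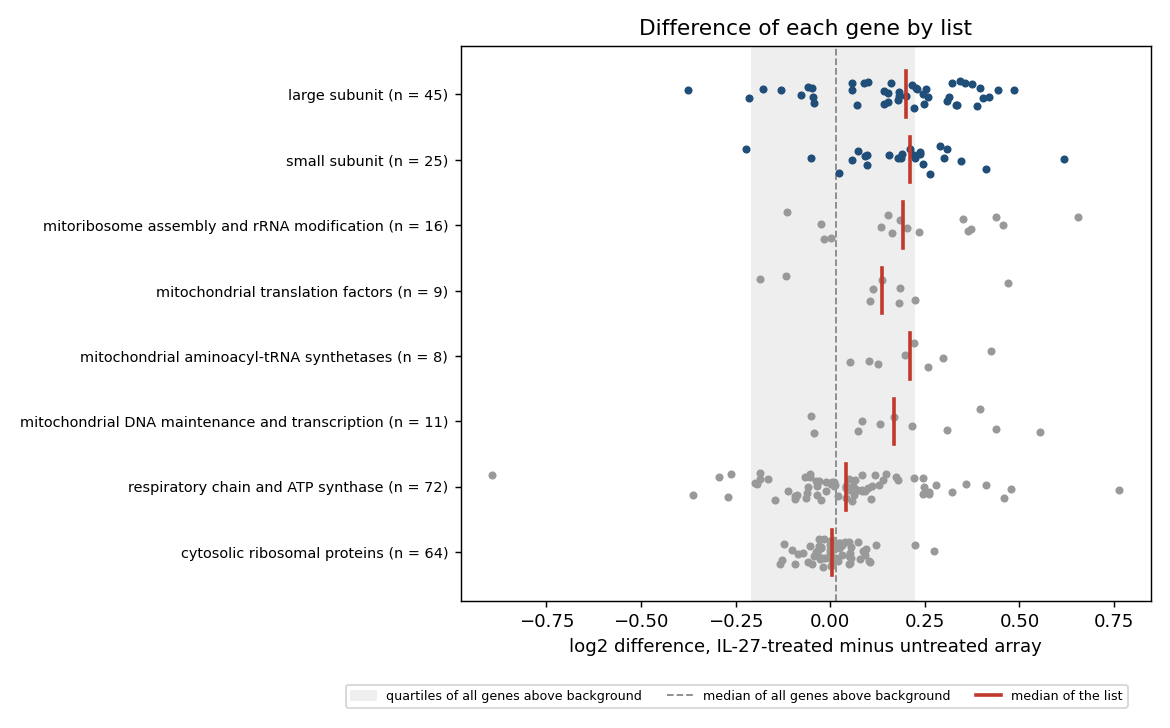
Log2 difference (IL-27-treated minus untreated array) of each gene above background in 8 lists, with red bars at the list medians, the quartiles of all genes above background shaded and their median dashed. Medians of the large and small subunit lie at 0.20 and 0.21 and that of cytosolic ribosomal proteins at 0.005.

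**Figure D4:**
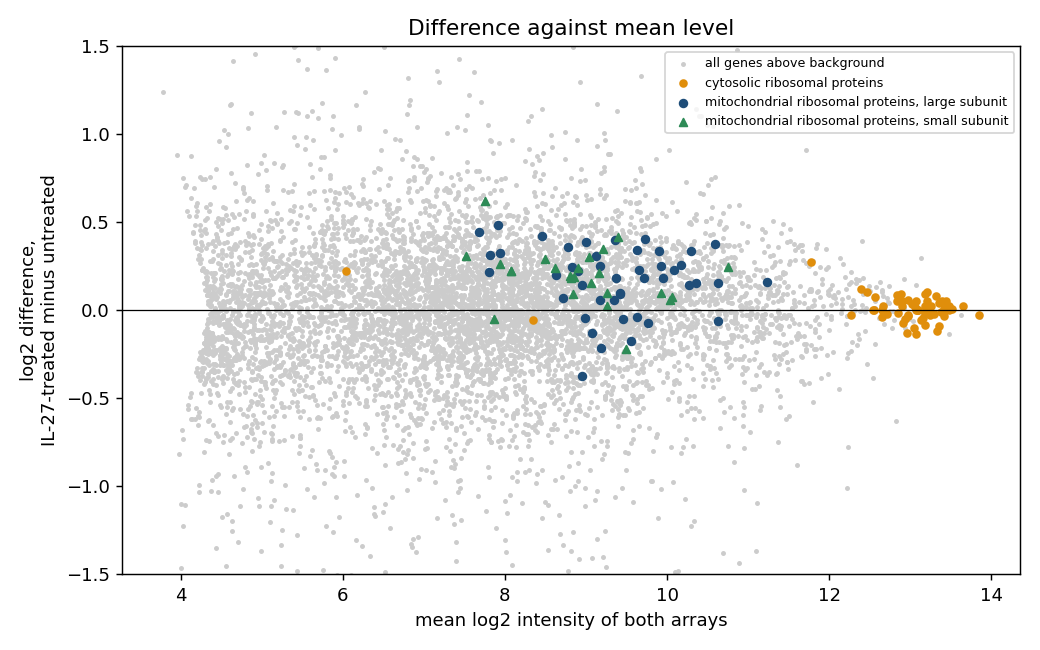
Log2 difference against the mean log2 intensity of both arrays for all genes above background, with large subunit genes (blue circles), small subunit genes (green triangles) and cytosolic ribosomal protein genes (orange) marked. Mitochondrial ribosomal protein genes have mean levels between 7.51 and 11.23, most cytosolic ribosomal protein genes lie at the bright end, and 121 genes beyond 1.5 in either direction are not drawn.

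The shift did not sit at one end of the brightness scale. The 35 dimmer members had a median of 0.22 with 31 higher, and the 35 brighter members had a median of 0.15 with 28 higher. The 45 genes with 1 probe set above background had a median of 0.18 with 38 higher. Summed over the 70 genes, intensity was 51399 on the IL-27-treated and 45798 on the untreated array.

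Members are scattered over the genome. They lie on 17 chromosomes, with at most 9 on a single one, chromosome 11. RefSeq promoter windows of GRCm38.p6, from 250 bases before to 50 bases after the first listed start, were found for 62 of the 70. These windows were searched on both strands for motifs of factors that are known to regulate nuclear genes of mitochondrial function or growth. The letters CCGGAAG of GABP and other ETS factors stood in 21 of 62 member windows (33.9%), against 21.1% of 5912 windows of genes above background and 9.12% of all 27025 windows. Cytosolic ribosomal protein genes held it more often, in 23 of 51 windows (45.1%). The shares of these 51 windows were 11.8% for NRF1, 3.92% for YY1, 9.80% for the E-box and 56.9% for the GC box. For GCGCANGCG of NRF1 the shares in members, in genes above background and in all windows were 22.6%, 15.6% and 6.47%, and for AAGATGGC of YY1 17.7%, 5.40% and 2.88%. The E-box CACGTG, which Myc binds, stood in 6.45% of member windows, against 10.8% of windows of genes above background and 7.24% of all windows. The GC box GGGCGG stood in 51.6%, 66.8% and 35.9%, in that order. The end of the ETS motif is the start of the YY1 motif, so both can share letters, and the E-box is its own reverse complement. A match is a description of letters and not of a bound site. Members with an ETS match had a median difference of 0.10 and those without one 0.22, and the medians for NRF1 were 0.16 with and 0.22 without a match. They were 0.18 with and 0.20 without a match for YY1, 0.20 with and 0.19 without for the E-box, and 0.18 with and 0.23 without for the GC box.

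**Figure D5:**
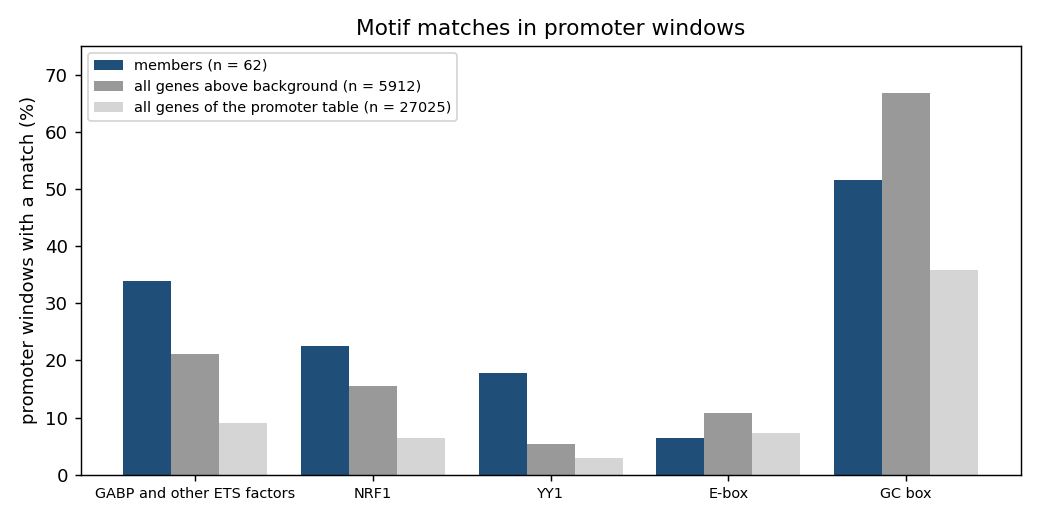
Share of RefSeq promoter windows (percent) that hold each motif on either strand, for 62 mitochondrial ribosomal protein genes, 5912 genes above background and all 27025 genes of the promoter table. Shares of ETS, NRF1 and YY1 matches are higher in members than in both other sets, and those of the E-box and the GC box are lower than in genes above background.

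Of the members, 22 of 62 (35.5%) share a promoter region with a divergent neighbour, a gene on the opposite strand whose start lies less than 1000 bases away and points away from it, as do 19.6% of the genes above background with a window. This comparison was chosen after the values were seen. In one case both are members: the starts of Mrpl46 and Mrps11 lie 42 bases apart. Mrps11 had 268.3 on the IL-27-treated and 223.5 on the untreated array, a difference of 0.26, and Mrpl46 had 430.6 on the IL-27-treated and 409.8 on the untreated array, a difference of 0.07. Of 11 divergent neighbours above background that are not members, 9 were higher, with a median of 0.20. Of all genes above background 51.8% were higher. Sars2, the mitochondrial seryl-tRNA synthetase gene next to Mrps12, differed by 0.20, as Mrps12 did by 0.19. Mitd1 beside Mrpl30 differed by 0.41, Eme1 beside Mrpl27 by 0.29 and Klc4 beside Mrpl2 by 0.26. Others differed little: Psma2 beside Mrpl32 by 0.07, Ppp1r10 beside Mrps18b by 0.01 and Tcp1 beside Mrpl18 by -0.08. Fau encodes a cytosolic ribosomal protein fused to a ubiquitin-like protein and differed by -0.02. It starts 192 bases from Mrpl49, the large subunit gene with the highest difference. Fau had 9064 on the IL-27-treated and 9193 on the untreated array.

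Sequences before the start are given for the genes with the highest difference in each subunit, for 2 lower genes, for the shared regions of 3 divergent pairs, and for the members with the highest difference that hold an ETS or NRF1 match there. They are RefSeq sequences of GRCm38.p6 on the gene's own strand, 5′ to 3′, end at the base before the start and are cut where a neighbouring gene begins. Capitals mark motif matches on either strand. Mrps31 lies at chr8:22411190-22411339 (+) and holds none of the motifs in this stretch. The bases between Mrpl49 and Fau, chr19:6057756-6057946 (-), hold GC boxes. Mrps24, chr11:5707702-5707851 (-), and Mrpl10, chr11:97041432-97041581 (+), were lower by their brightest probe sets, and the stretch of Mrps24 holds GC boxes and that of Mrpl10 an NRF1 match. The bases between Mrpl46 and Mrps11, chr7:78783090-78783130, are given on the strand of Mrps11 (+) and hold a GC box. Those between Mrps12 and Sars2, chr7:28741822-28741956 (-), hold a GC box. Mrpl3, chr9:105053118-105053267 (+), has an ETS match, and Mrpl39, chr16:84735245-84735394 (-), has overlapping NRF1 matches on both strands.
Mrps31: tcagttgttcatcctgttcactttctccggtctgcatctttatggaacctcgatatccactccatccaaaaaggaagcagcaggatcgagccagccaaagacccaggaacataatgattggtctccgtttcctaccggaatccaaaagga
Mrpl49: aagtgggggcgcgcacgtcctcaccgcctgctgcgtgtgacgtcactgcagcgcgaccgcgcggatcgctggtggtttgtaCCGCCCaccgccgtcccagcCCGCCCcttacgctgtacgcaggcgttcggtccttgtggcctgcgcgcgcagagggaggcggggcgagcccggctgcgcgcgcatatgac
Mrps24: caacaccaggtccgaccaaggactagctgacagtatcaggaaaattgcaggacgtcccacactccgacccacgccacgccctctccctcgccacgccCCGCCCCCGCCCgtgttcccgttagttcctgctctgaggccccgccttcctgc
Mrpl10: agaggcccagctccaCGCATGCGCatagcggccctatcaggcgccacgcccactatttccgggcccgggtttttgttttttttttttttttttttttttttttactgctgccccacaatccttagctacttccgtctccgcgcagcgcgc
Mrps11: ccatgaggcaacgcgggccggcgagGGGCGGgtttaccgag
Mrps12: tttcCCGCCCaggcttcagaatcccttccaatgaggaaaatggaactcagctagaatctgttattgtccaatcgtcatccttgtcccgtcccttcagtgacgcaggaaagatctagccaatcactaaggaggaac
Mrpl3: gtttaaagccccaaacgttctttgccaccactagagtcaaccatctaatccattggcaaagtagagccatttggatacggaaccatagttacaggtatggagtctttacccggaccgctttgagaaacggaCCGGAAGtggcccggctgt
Mrpl39: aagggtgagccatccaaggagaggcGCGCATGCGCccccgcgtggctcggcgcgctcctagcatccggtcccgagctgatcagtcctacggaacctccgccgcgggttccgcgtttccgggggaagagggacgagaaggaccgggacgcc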

How the data were processed

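Total RNA of IL-27-treated and of untreated CD4+ T cells was amplified with a 3' in vitro transcription kit and hybridized to 1 Affymetrix array each, per the labels' protocols. The deposited table holds 1 intensity per probe set and array, made with RMA per the submitters' processing notes. No RMA version or genome build is given in the sources used here. RMA makes array distributions alike and compresses differences of dim and of very bright probe sets. Of 22716 probe sets, 18003 had 1 gene symbol, 287 several and 4426 none listed. Intensities were taken to log2 with no pseudocount and no further normalization (Python 3.11.15, pandas 2.3.3, statsmodels 0.14.6 for loess). The brightest probe set by mean log2 level stood for a gene. The background limit was the 95th percentile over 44 measured of 50 listed genes of other tissues. With 1 array per group no test was run, and the number of arrays limits the precision. Named were the 8 highest and 8 lowest members per subunit, the 5 brightest per subunit, members of structural groups, members whose probe sets disagreed and up to 4 genes per list with the largest difference; neighbours of divergent promoters, further list members and the other probe set examples were chosen after their values were seen. Members and lists were chosen with earlier results of these data known. Alternatives covered the filter, the probe set choice, normalization, a pseudocount of 16, dim values and placement by structure. Protein sequences were not used here. The procedure was tested on simulated data with planted differences larger than that of any member and a 2-fold call. That test therefore does not bear on the small differences reported here.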

Additional observations from a re-analysis of the deposited data

How the results depend on the processing

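Medians of both subunits stayed positive under all 9 alternatives, between 0.16 and 0.20 for the large and between 0.16 and 0.29 for the small subunit. No filter, a limit on both arrays and raised dim values left every member's value as it was, since all 70 were above background on both arrays. Loess normalization, with a span of 0.3, gave medians of 0.16 and 0.16 against -0.01 over all genes, and 7 large subunit genes higher by at least 0.32, where the reported count is 11. The mean of probe sets gave 7 higher and 0 lower past that limit in the large subunit. This mean also takes in probe sets below background, such as the second of Mrpl38, at 15.8 on the IL-27-treated and 17.9 on the untreated array. Their part in the changed counts was not tested. With only probe sets whose identifiers do not end in _s_at, _x_at or _a_at, 52 members were left, with 6 of 36 large subunit and 6 of 16 small subunit genes higher by at least 0.32 and a small subunit median of 0.29; Mrpl15 then differed by -0.13 through its dim probe set. The count of members 2-fold apart was 0 under each. Signs of Mrpl17, Mrps5 and Mrps15, all within 0.08 of 0, also turned under 1 or more alternatives, and the cytosolic ribosomal protein median was negative after median subtraction and loess. No paired analysis was possible because each group has 1 array. The number of arrays limits every difference. By their brightest probe sets all members exceeded background on both arrays, and the part of brightness in the differences was not tested.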

Other observations

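Nuclear regulators of mitochondrial genes, which the report does not describe, differed in both directions. Of 10 above background, 7 were higher and 3 lower, with a median of 0.19. Of all genes above background 51.8% were higher. Ppargc1b and Pprc1, coactivators of the PGC-1 family, differed by 0.51 and 0.44, with Ppargc1b at 82.4 on the IL-27-treated and 57.8 on the untreated array. The subunit genes of GABP differed by 0.49 (Gabpb1) and 0.17 (Gabpa). Myc, which drives ribosome production and mitochondrial growth in activated T cells, had 1375 on the IL-27-treated and 1181 on the untreated array, a difference of 0.22, and its relative Mycn differed by 0.24. Nrf1 and Yy1, whose motifs were searched in the promoter windows, differed by -0.02 and -0.09.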
